A study of Mus musculus with 2 samples.

Results

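Tbx21, Eomes, Runx3 and Zfp683, the transcription factor genes of type-1 and tissue-resident lymphocytes, are described here in 2 single-cell libraries of mouse colon. The members are the rows of these 4 gene symbols, of 32285 genes in both matrices, and all 4 were found in both. The libraries hold cells labelled as γδ T lymphocytes from C57BL/6J mice of 18 to 20 weeks, 1 library from normal colon tissue (IEL) and 1 from colon tumor (TIL). No sort, gate, genotype, treatment or number of animals is given, and the tissue protocol attached to the IEL library also names tumour tissue. Transcript 3' ends were counted by unique molecular identifiers (UMIs), with 69414155 UMIs over 9398 cell barcodes in the IEL and 94953893 over 13245 in the TIL library. The libraries share 33 barcode sequences.

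Each group was 1 library, so there was no replicate and no test between samples. All differences below therefore compare 1 library with 1 other. Brackets hold 95% intervals, which take in counting error and nothing else.

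Tbx21 encodes T-bet, the T-box factor that drives interferon-γ and cytotoxic genes in type-1 lymphocytes, and Eomes encodes its close relative Eomesodermin, known from NK cells and memory CD8 T cells. Runx3 encodes a Runt-domain factor that silences Cd4, sustains Cd8 expression and, with T-bet and Eomesodermin, acts on cytotoxic genes such as Gzmb. Zfp683 encodes Hobit, a zinc-finger relative of Blimp-1 known from tissue-resident lymphocytes of the mouse. Gzmb encodes the protease granzyme B of cytotoxic granules, and Ccl5 a chemokine that intraepithelial and memory T cells store and secrete.

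Positions are those of GRCm38. Tbx21 lies on chromosome 11 from 97098071 to 97115331 on the minus strand, Eomes on chromosome 9 from 118478212 to 118486132, Runx3 on chromosome 4 from 135120652 to 135177990 and Zfp683 on chromosome 4 from 134053838 to 134058996, these 3 on the plus strand. Gzmb lies on chromosome 14 from 56258838 to 56262260 and Ccl5 on chromosome 11 from 83525778 to 83530518, both on the minus strand. Eomes is overlapped on the other strand by Gm33460 and Runx3 by Gm16224. Zfp683 is a protein-coding gene in the GENCODE annotation and a pseudogene in the RefSeq table used here.

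The promoter windows show where the binding letters of these factors stand at the genes that the results turn on. They are the 250 bases before an annotated start, from RefSeq on GRCm38.p6, printed 5′ to 3′ on the gene's strand. Capitals mark the RUNX core letters TGTGGT, or ACCACA where the match is on the opposite strand.
Gzmb, chr14:56262335-56262584, minus strand: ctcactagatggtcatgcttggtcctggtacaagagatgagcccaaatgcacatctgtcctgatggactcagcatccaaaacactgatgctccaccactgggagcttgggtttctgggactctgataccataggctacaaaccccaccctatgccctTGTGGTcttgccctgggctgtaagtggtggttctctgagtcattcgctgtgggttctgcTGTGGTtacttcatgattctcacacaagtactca
Runx3, first of 2 starts, chr4:135120395-135120644, plus strand: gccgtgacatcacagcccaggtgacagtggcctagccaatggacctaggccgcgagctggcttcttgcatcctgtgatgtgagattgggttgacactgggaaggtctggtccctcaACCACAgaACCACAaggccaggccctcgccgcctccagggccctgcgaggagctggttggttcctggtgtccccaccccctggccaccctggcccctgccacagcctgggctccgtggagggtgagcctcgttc
Tbx21, chr11:97115332-97115581, minus strand: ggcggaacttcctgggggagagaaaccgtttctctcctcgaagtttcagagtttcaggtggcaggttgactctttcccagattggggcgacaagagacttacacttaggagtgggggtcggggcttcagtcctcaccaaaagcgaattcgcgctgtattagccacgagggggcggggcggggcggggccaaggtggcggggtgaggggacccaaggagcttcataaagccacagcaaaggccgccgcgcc
Eomes, chr9:118477939-118478188, plus strand: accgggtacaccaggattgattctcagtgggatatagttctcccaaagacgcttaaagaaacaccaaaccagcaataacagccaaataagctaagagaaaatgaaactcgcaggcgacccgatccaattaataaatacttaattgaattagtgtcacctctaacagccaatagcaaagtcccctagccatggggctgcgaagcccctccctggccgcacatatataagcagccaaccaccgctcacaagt
The Gzmb window holds 2 RUNX matches, which begin 93 and 34 bases before the start. The first Runx3 window holds 2 as well, 134 and 126 bases before it, on the opposite strand. The Tbx21 and Eomes windows and the second Runx3 window hold none. Among 32851 windows of the same length, 14.0% held at least 1 match on either strand and 1.27% at least 2. The T-box letters GGTGTGA, found in 3.33% of all windows, were in none of these, so no match of the 2 motifs overlapped. A match describes letters only and no binding was measured.

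Cells were first sorted into clusters made without the 4 factor genes, Gzmb and Ccl5. Of 20 clusters, 15 were kept as T cells, with 9083 IEL and 11700 TIL cells. Clusters led by epithelial, myeloid or αβ T cell genes, with few UMIs or with a high median doublet score were left out. Most clusters came almost wholly from 1 library, so the IEL and TIL values below were summed over different clusters. The γδ label was checked against 8 marker genes, of which 7 reached 50 UMIs per 1000000 (CPM) in IEL and 8 in TIL T cell clusters. Trac, the constant segment of the α receptor chain, had a UMI in 43.2% of IEL and 15.3% of TIL cells at 2000 UMIs per cell, and 11.1% of IEL cells had a Trac and no Trdc UMI. Haemoglobin and other erythroid markers summed to 2066 CPM over the TIL clusters, against 0.190 CPM over the IEL ones. In TIL clusters 7, 8 and 18, on which the results below turn, that sum was 95.2, 106 and 102 CPM, against 1785 to 3188 CPM in clusters 11, 14, 15 and 16, and its part in the levels was not tested.

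Tbx21 was high in the normal colon library and scarce in the tumour library. IEL T cell clusters stood at 55.2 CPM (53.5 to 57.0), from 3768 UMIs. TIL clusters stood at 2.96 CPM (2.61 to 3.35), from 254 UMIs. The level was thus 18.6-fold higher in IEL cells (16.4 to 21.2), a log2 ratio of TIL over IEL of -4.22 (-4.41 to -4.04). Over every cell that passed the filter, the levels were 55.0 and 3.07 CPM.

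Eomes had a low level in both libraries, at 0.879 CPM (0.671 to 1.13) from 60 UMIs in IEL and 2.63 CPM (2.29 to 2.99) from 225 UMIs in TIL clusters. The log2 ratio was 1.58 (1.16 to 2.01) and rested on 1 tumour cluster, described below. Without that cluster, number 8, the levels were 0.851 and 0.5003 CPM and the ratio turned to -0.77 (-1.38 to -0.16).

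Runx3 was measured from 19995 IEL and 24068 TIL UMIs and was nearly level, at 293 CPM (289 to 297) and 281 CPM (277 to 284). Its log2 ratio was -0.06 (-0.09 to -0.03) and turned to 0.04 when the median ratio of all genes was set to 0, so no direction is given for it.

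Zfp683 was close to absent from the counts. It had 23 UMIs in IEL and 4 in TIL T cell clusters, or 0.337 CPM (0.214 to 0.506) and 0.0467 CPM (0.0127 to 0.119). The ratio, 7.22-fold higher in IEL cells, has an interval from 2.47 to 28.7. No cell held more than 2 Zfp683 UMIs.

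A gene was counted as apart between the libraries when it reached 20 CPM in either, differed 2-fold or more and had an interval that excludes 1. Of the 4 factors, 2 reached 20 CPM, Tbx21 and Runx3, and 1 of them, Tbx21, was apart, higher in IEL. Among all 6326 genes at 20 CPM, 13.9% were apart in that direction and 11.1% in the other, and the median log2 ratio was -0.10. Eomes and Zfp683 lay under 20 CPM in both libraries and were not counted.

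A cell-wise rule gave ratios of the same sign for these 4 factors. It took cells that held Trdc or Tcrg-C transcripts but lacked Trac, 2010 from IEL and 7637 from TIL. These came from every cluster, also from those left out of the T cell clusters. Tbx21 was at 46.3 and 2.05 CPM in them, Eomes at 1.58 and 3.63 CPM and Runx3 at 311 and 288 CPM. Within the IEL library, the Tbx21 share of cells was highest where both receptor transcripts were found. It was 8.87% (8.002 to 9.81) in cells with Trdc and no Trac UMI, 8.68% (7.01 to 10.6) in those with Trac and no Trdc, 11.3% (10.2 to 12.5) in those with both and 7.88% (6.42 to 9.54) in those with neither. The interval with both overlapped that of the cells with Trac alone and neither of the other two. Runx3 had shares of 43.4%, 42.8%, 43.9% and 43.5% in the same 4 sets of cells.

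Shares of cells tell how widely each factor was detected, once every cell is thinned to 2000 UMIs. A Tbx21 UMI was found in 9.51% of IEL (8.91 to 10.1) and 0.687% of TIL cells (0.545 to 0.855). Over 20 random thinnings the IEL share ran from 9.38% to 10.8%, and the TIL share from 0.558% to 0.747%. Before thinning they were 28.6% and 1.85%, where the median cell had 6854 and 6383 UMIs. Most IEL cells with the transcript held a single UMI, 1817 cells against 782 with 2 or more.

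Runx3 was detected widely in both libraries, in 43.5% of IEL (42.5 to 44.5) and 39.1% of TIL cells (38.2 to 39.9). The unthinned shares were 80.9% and 72.6%. Eomes was found in 0.144% of IEL (0.0768 to 0.247) and 0.515% of TIL cells (0.394 to 0.663). Zfp683 was found in 2 of 9011 IEL and 2 of 11640 TIL cells.

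The background for these shares was read from the tumour library's myeloid-like cluster, number 17, of a cell type that should lack Tbx21 and Eomes. It had 211 cells at 2000 UMIs and a median of 6808 UMIs before thinning. Tbx21 was found in 0.948% of them (0.115 to 3.38) and Eomes in 0.474% (0.0120 to 2.61). The shares of Tbx21 and Eomes over all TIL T cell clusters lay within these intervals. The intervals rest on 2 and 1 myeloid-like cells, too few to tell whether those shares exceed a background. A Trdc UMI was found in 43.1% of the myeloid-like cells, so they are not free of T cell transcripts. The Tbx21 shares of clusters 18 and 7 and the Eomes share of cluster 8, given below, lay above the upper bounds of the myeloid-like shares, though the interval of cluster 7 overlapped. No IEL cluster of that kind held enough cells for the same reading. Runx3 was found in 24.2% (18.6 to 30.5) of the myeloid-like cells, with 19.8 Runx3 UMIs per 100 Trdc UMIs against 7.28 in the whole TIL library. The share of Runx3 there is therefore not read as a background, and the part of free RNA in it was not tested.

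**Figure D1:**
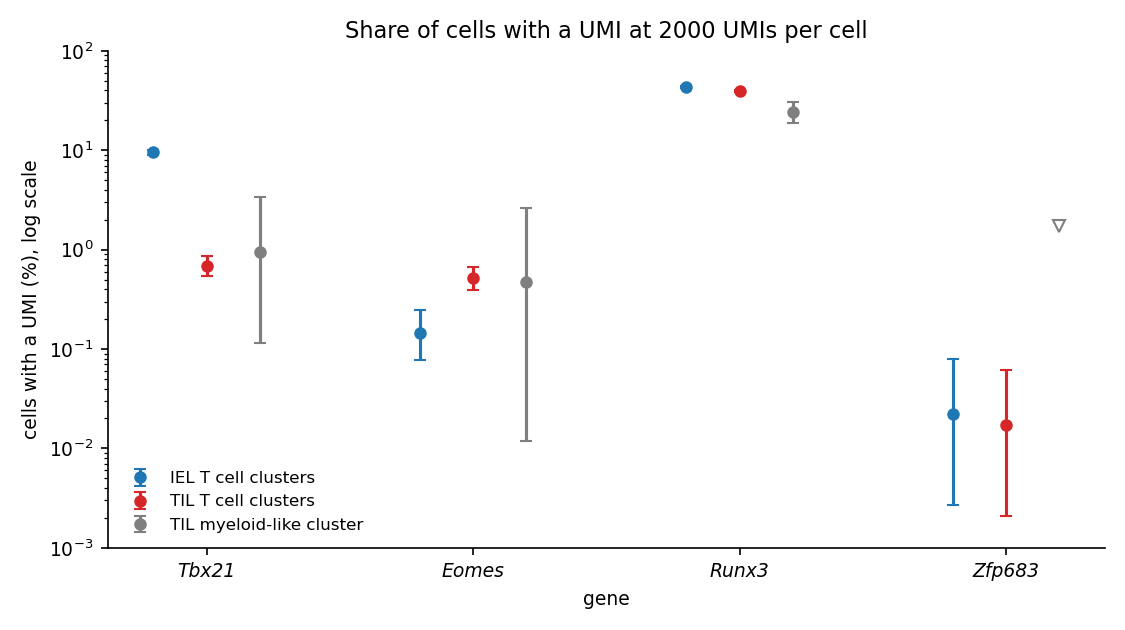
Percent of cells with at least 1 UMI of each factor at 2000 UMIs per cell (log axis), in the T cell clusters of each library and in the TIL myeloid-like cluster; bars are exact 95% intervals and the open triangle is the upper bound where no cell had a UMI. Tbx21 stands at 9.51% in IEL and 0.687% in TIL cells, and Runx3 at 43.5% and 39.1%.

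Within the IEL library, Tbx21 spanned all larger clusters but not evenly. The highest level was 80.7 CPM (75.3 to 86.3) in cluster 4, which is led by the heat shock genes Hspa1b, Hspa1a and Dnajb1. Cluster 3, led by Themis and Cd8b1, had 78.1 CPM (73.1 to 83.3). Clusters 4 and 3 did not differ beyond counting error. Tbx21 is among the 10 leading genes of cluster 3, which were ranked against all other cells of both libraries. Against the rest of the IEL clusters, Tbx21 was 1.60-fold in cluster 4 and 1.55-fold in cluster 3. Cluster 9, of cycling cells, followed at 62.2 CPM (50.4 to 75.9). Clusters 1, 6 and 2 stood at 54.0, 48.5 and 48.2 CPM with overlapping intervals.

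Cluster 5, led by Gm19590, Klra7 and Rbpms and the largest IEL cluster with 1950 cells, was the low end among them at 27.2 CPM (24.6 to 30.05), 0.434-fold the rest of the library (0.390 to 0.482). It also carried the least Cd8a of the IEL clusters apart from number 11, 161 CPM against 558 to 920 CPM. Its Klra7, a gene of the NK receptor family, stood at 59.7 CPM, and the 7 NK and innate lymphoid markers summed to 97.8 CPM there against 12.1 to 38.6 in the other IEL clusters. Ncr1, a defining NK gene, was at 1.53 CPM in cluster 5, and the part of these genes in the Tbx21 level was not tested. The last IEL group, 52 cells of cluster 11, had 4 Tbx21 UMIs, or 12.7 CPM (3.46 to 32.5).

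In the tumour library Tbx21 was concentrated in 2 small clusters. Cluster 18, led by Bcl2l15 and Gm156 and made of 308 TIL cells, had 36.5 CPM (27.9 to 46.8), 15.9-fold the rest of the TIL clusters (11.7 to 21.3). Cluster 7, led by the granzyme gene Gzmc, with 707 TIL cells, had 14.6 CPM (11.4 to 18.5), 6.44-fold the rest (4.82 to 8.52). Together they were 2.63% and 6.04% of TIL cells and held 24.0% and 27.6% of the Tbx21 UMIs. Without both, the TIL level was 1.55 CPM and the log2 ratio to IEL -5.15.

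Cluster 18 reached the lower IEL levels. Its Tbx21 log2 ratio was 0.42 (0.01 to 0.81) over IEL cluster 5 and -0.41 (-0.86 to 0.02) over IEL cluster 6. Against the heat shock cluster 4 it was -1.15 (-1.54 to -0.77). Cluster 7 stood below each of the 6 larger IEL clusters that are not cycling, with log2 ratios from -2.46 to -0.89. Tbx21 shares at 2000 UMIs were 7.28% (4.62 to 10.8) in cluster 18 and 3.99% (2.67 to 5.71) in cluster 7. Before thinning, the myeloid-like cluster stood at 1.26 CPM (0.260 to 3.69), below both.

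The 4 large tumour clusters in which at least 5 of 9 IL-17 markers reached 50 CPM had little Tbx21. Cluster 14, led by Epas1 and Il18r1, had 0.540 CPM (0.269 to 0.966), cluster 16, led by Il17f and Batf3, 0.925 CPM (0.557 to 1.44), cluster 15, led by Mmp9 and Serpine2, 0.960 CPM (0.586 to 1.48), and cluster 11, led by 5830411N06Rik, 1.98 CPM (1.22 to 3.02). They make up most of the TIL cells. If their few Cd8a UMIs came from free RNA, that source would give 0.107 to 0.193 CPM of Tbx21 in them. The same reading of Trdv4 in clusters 7, 8 and 18 would give 0.0418, 0.0366 and 0.0374 CPM of Tbx21 there.

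Eomes showed a single high cluster. Cluster 8, led by Ly6c2 and Igfbp4, had 49.0 CPM (42.2 to 56.6) from 184 UMIs in 702 TIL cells, 97.9-fold the rest of the TIL T cell clusters (69.5 to 141). That was 81.8% of the Eomes UMIs in 6.00% of the cells. At 2000 UMIs, 6.90% (5.13 to 9.04) of its cells had an Eomes UMI. The next level, in cluster 7, was 2.72 CPM (1.45 to 4.65), and the other TIL clusters lay at or below 0.754 CPM. Cluster 18, the one with the most Tbx21, had no Eomes UMI among 308 cells.

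The IEL clusters had 0 to 1.32 CPM of Eomes. Cluster 4, at 1.32 CPM (0.724 to 2.22), and cluster 5, at 1.26 CPM (0.744 to 1.98), lay above cluster 1, at 0.227 CPM (0.0467 to 0.662), and the other IEL intervals overlapped. Cluster 8 carried the recirculation genes of the marker lists, with 5 of 5 at 50 CPM or more and a sum of 2438 CPM, such as S1pr1 at 279 CPM. Its NK markers summed to 20.2 CPM, with Ncr1 at 0.532 CPM. Trdc stood at 979 CPM there, Trac at 50.6 CPM and Cd8b1 at 60.4 CPM. Trdv4, a δ variable segment of the IL-17 clusters, was at 2.93 CPM in cluster 8 and 62.3 CPM in the myeloid-like cluster. Tbx21 was at 5.32 CPM (3.25 to 8.22) in cluster 8, so the highest levels of the 2 T-box factors lay in different tumour clusters.

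**Figure D2:**
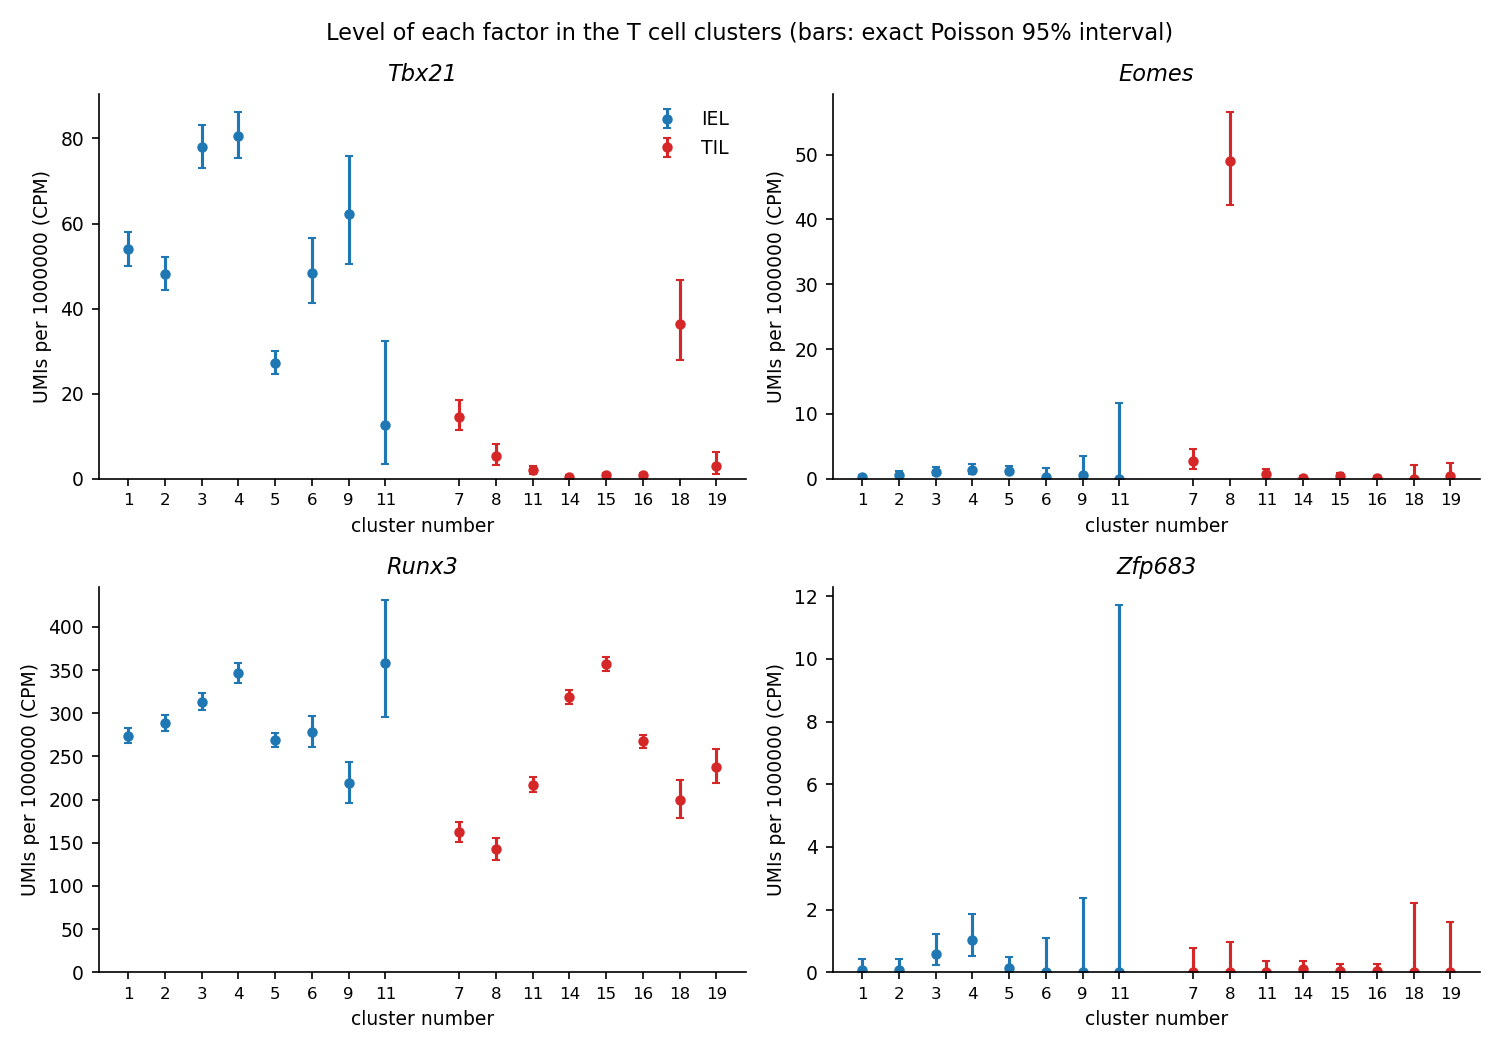
Level of each factor, as UMIs per 1000000 on linear axes from 0, in every T cell cluster with at least 50 cells of a library; points are the summed level and bars the exact Poisson 95% interval. Tbx21 stands high in IEL clusters and in TIL cluster 18 (36.5 CPM), Eomes in TIL cluster 8 alone (49.0 CPM), and Runx3 in all.

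Runx3 was present in every cluster and varied by a smaller factor. In TIL clusters it ran from 142 CPM (131 to 155) in cluster 8 and 162 CPM (151 to 174) in cluster 7 to 319 CPM (311 to 327) in cluster 14 and 356 CPM (348 to 365) in cluster 15. Cluster 18 had 200 CPM (179 to 222), cluster 11 had 217 CPM (209 to 226), cluster 19, of cycling cells, 238 CPM (219 to 259) and cluster 16 had 267 CPM (260 to 274). The intervals of clusters 18, 11 and 19 overlapped in neighbouring pairs.

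In the tumour library, the 3 clusters with the most Tbx21 or Eomes were the 3 with the least Runx3. Among these 3, Runx3 did not run against Tbx21. Clusters 8, 7 and 18 had 142, 162 and 200 CPM of Runx3 at 5.32, 14.6 and 36.5 CPM of Tbx21. In IEL clusters Runx3 lay between 219 CPM (197 to 244) in the cycling cluster 9 and 359 CPM (295 to 431) in the 52 cells of cluster 11. Cluster 4 had 346 CPM (335 to 358) and cluster 3 had 313 CPM (303 to 324). Clusters 4 and 3 also had the most Tbx21 in IEL, so the split seen in the tumour clusters did not hold for them. Cluster 11, with the most Runx3, had the least Tbx21, 12.7 CPM from 4 UMIs. Clusters 2, 6, 1 and 5, at 289 to 269 CPM, had overlapping intervals between neighbours. Cluster 7 had less Runx3 than each of the 6 larger IEL clusters, with log2 ratios from -1.10 to -0.73, and cluster 18 from -0.80 to -0.43.

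Zfp683 had 11 of its 23 IEL UMIs in cluster 4, at 1.04 CPM (0.519 to 1.86), and 7 in cluster 3, at 0.590 CPM (0.237 to 1.22). The log2 ratio of Zfp683 to the other IEL clusters was 2.32 (0.999 to 3.63) in cluster 4 and 1.06 (-0.47 to 2.42) in cluster 3. With so few UMIs the other clusters could not be ordered. Its 4 TIL UMIs lay in clusters 14, 15 and 16, and clusters 7, 8 and 18 had none.

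Ccl5 was high in clusters with Tbx21 and low in those with little of it, and Gzmb was high in some clusters of either kind. Over the 16 cluster-by-library groups, log2(CPM + 1) of Tbx21 and Ccl5 had a Pearson r of 0.93, with 0.92 over the 8 IEL and 0.94 over the 8 TIL groups. For Tbx21 and Gzmb r was 0.36, with 0.90 over IEL and 0.06 over TIL groups. These are descriptions over groups that share a library. Ccl5 stood at 27351 CPM in TIL cluster 18, at 8726 CPM in cluster 7 and at 101 to 371 CPM in clusters 11, 14, 15 and 16. In the IEL library it stood at 520 CPM in cluster 11 and 5675 CPM in cluster 5, the 2 with the least Tbx21. Among the other 6 IEL clusters Ccl5 did not follow the order of Tbx21. Clusters 4 and 3, with the most Tbx21, had 23594 and 25166 CPM of Ccl5, while clusters 1 and 2 had 29469 and 32631 CPM. Gzmb was likewise lowest of the IEL clusters in 11 and 5, at 216 and 452 CPM, and did not follow Tbx21 among the other 6. It stood at 4235 and 3583 CPM in clusters 4 and 3, and at 4664 and 6574 CPM in clusters 1 and 2.

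Several tumour clusters had Gzmb with little Tbx21. Cluster 15 had 4301 CPM of Gzmb and 0.960 CPM of Tbx21, and clusters 19, 14, 16 and 11 had 2074, 1296, 1242 and 1001 CPM of Gzmb at 3.05 CPM of Tbx21 or less. Cluster 8, with the most Eomes, had the least Gzmb of all groups, 74.8 CPM (66.3 to 84.1), beside 3538 CPM of Ccl5. Summed over its clusters, the IEL library had 3696 CPM of Gzmb and the TIL library 2008 (log2 ratio -0.88), and for Ccl5 the values were 22205 and 1424 CPM (-3.96).

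**Figure D3:**
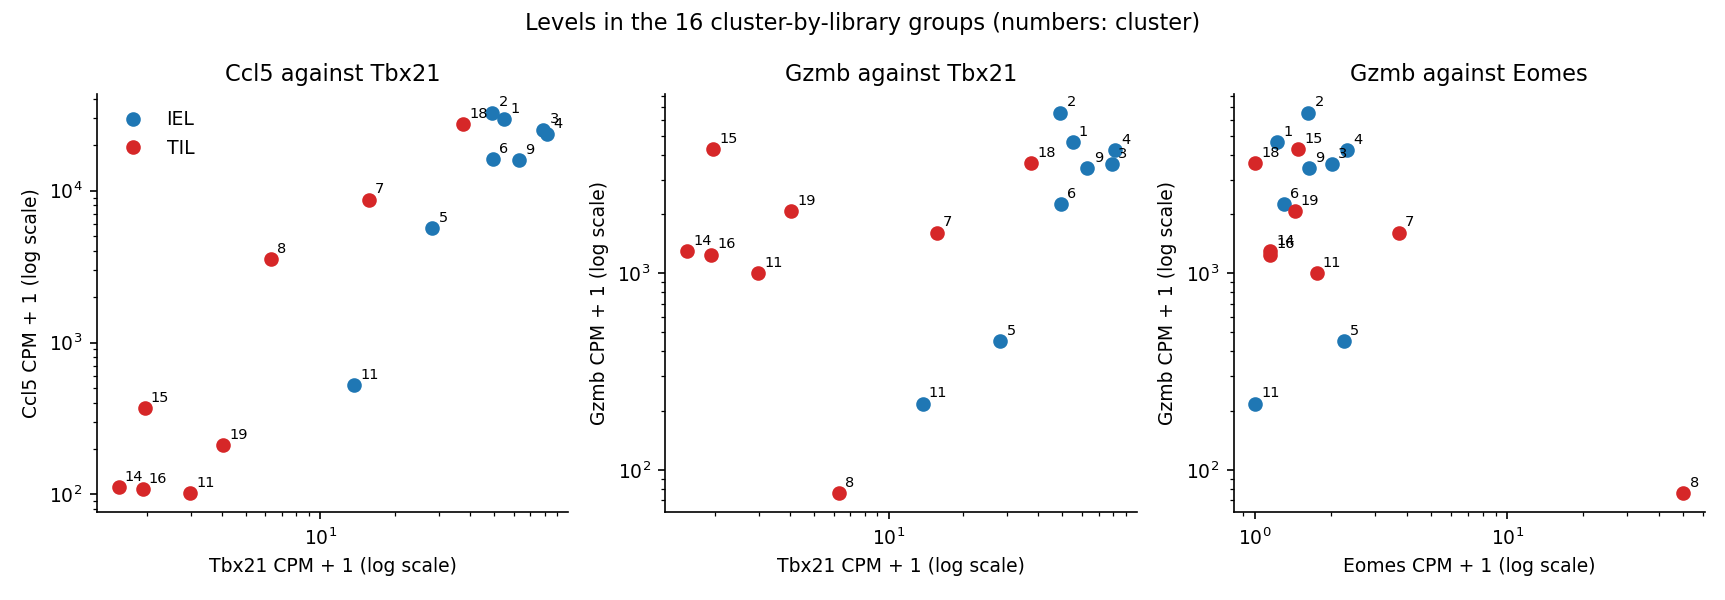
Level of an effector gene against that of a factor in the 16 cluster-by-library groups, as CPM + 1 on log axes, with IEL groups in blue, TIL groups in red and the cluster number beside each point. Groups with little Tbx21 have little Ccl5 (r 0.93 over the 16 groups), but the 6 IEL clusters with the most Tbx21 show no such order; TIL cluster 15 has 4301 CPM of Gzmb at 0.960 CPM of Tbx21 and cluster 8 stands alone in Eomes.

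The link was then read cell by cell within each library, at 2000 UMIs. For 10 pairs of factor, effector and library with at least 20 factor-positive cells, the share of cells with an effector UMI was compared between cells with and without a UMI of the factor. A second comparison weighted the cells without it to the same clusters as the cells with it. Each pair was also drawn 20 times. A cell without a UMI at this depth may still express the gene, so the differences are those of detection.

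Every gene with a UMI in at least 200 cells of a library gave a background for these pairs, 7232 genes for Gzmb and 7233 for Ccl5 in IEL and 7423 for each in TIL cells. In 1 further thinning, each gene was ranked by the log2 ratio of mean effector UMIs in cells with it over cells without it. For Gzmb in IEL cells, 86.2% of genes lay below Tbx21 and 69.3% below Runx3. For Ccl5 in IEL cells the values were 70.3% and 44.3%. These 4 ratios lay within the middle 90% of all genes. For Gzmb in TIL cells, 96.8% of genes lay below Tbx21, 93.1% below Runx3 and 0.189% below Eomes. For Ccl5 in TIL cells, 99.6% lay below Tbx21, 96.8% below Eomes and 17.5% below Runx3. Tbx21, with 79 TIL cells, and Eomes, with 64, fall under the floor of 200 cells set for the background. Their ratios carry more counting error than those of the genes ranked, so their ranks in TIL cells cannot show that a link is unusual. Both Runx3 ratios in TIL cells also lay within the middle 90% of all genes.

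In IEL cells Gzmb was found more often with Tbx21, by a difference that lay mostly between clusters; 86.2% of genes had a smaller ratio of mean Gzmb UMIs. Of 857 cells with a Tbx21 UMI, 84.6% (82.0 to 87.0) had a Gzmb UMI, against 76.9% (75.9 to 77.8) of the 8154 others. The difference was 7.74 percentage points (5.01 to 10.2), and 3.30 to 8.98 over 20 draws. Cells without Tbx21 weighted to the same clusters had 84.1%. Mean Gzmb UMIs were 7.59 with and 7.11 without a Tbx21 UMI, and 7.95 in cells weighted to the same clusters. With at least 3 Gzmb UMIs the shares were 67.1% with Tbx21 and 68.6% in cells weighted to the same clusters. Within 6 single IEL clusters the share was higher with Tbx21 in 3, and no interval excluded 0.

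The Ccl5 share was near its ceiling in IEL cells, at 99.5% with and 98.9% without a Tbx21 UMI, a difference of 0.60 points (-0.15 to 0.98). Mean Ccl5 UMIs were 46.3 and 44.1, and 48.9 in cells weighted to the same clusters.

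In TIL cells Tbx21 went with Ccl5. Of 80 cells with a Tbx21 UMI, 75% (64.1 to 84.0) had a Ccl5 UMI, against 24.8% (24.0 to 25.6) of 11560 others, a difference of 50.2 points (39.7 to 58.4). It ran from 39.6 to 58.1 over 20 draws. Their mean was 29.1 against 3.26 Ccl5 UMIs. Cells weighted to the same clusters had 70.0% and a mean of 23.7 UMIs, so most of the difference lay between clusters.

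The Gzmb share of those 80 cells was 63.8% (52.2 to 74.2) against 59.0%, a difference of 4.79 points (-6.19 to 14.5) that ran from -7.15 to 13.9 over 20 draws. Within cluster 7 it was 71.4% of 28 cells against 40.5% of 674, a difference of 30.9 points (12.1 to 44.7), which ran from 12.9 to 46.0 over the 14 draws with at least 20 such cells. Those draws held 20 to 25 such cells. At Leiden resolution 2, a cluster led by Tmem158 (415 TIL cells) and one led by Gzmk (292) share leading genes with cluster 7. The link was not read within these, and no ranking over all genes was made within cluster 7. In cluster 18 the difference was 6.17 points (-11.4 to 11.8).

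Eomes in TIL cells went with Ccl5 and away from Gzmb. Of 60 cells with an Eomes UMI, 73.3% (60.3 to 83.9) had a Ccl5 UMI against 24.9% of the others, and 15% (7.10 to 26.6) had a Gzmb UMI against 59.2%. The differences were 48.4 points (36.1 to 58.0) and -44.2 points (-51.2 to -33.1). They ran from 38.6 to 54.5 and from -49.1 to -34.4 over 20 draws. In cells weighted to the same clusters, Ccl5 was at 51.5% and Gzmb at 19.2%, so most of the Gzmb difference lay between clusters.

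Within cluster 8 the Ccl5 share was still higher with Eomes, 75% of 48 cells (60.4 to 86.4) against 49.7% of 648 (45.8 to 53.6). The difference was 25.3 points (11.0 to 36.1), and 14.1 to 32.2 over 20 draws. Mean Ccl5 UMIs there were 10.2 and 5.90. This within-cluster difference was above 0 in 20 of 20 draws, which thin the same cells again and show the spread of thinning only. No ranking over all genes was made within cluster 8. For Gzmb in cluster 8 the difference was -2.47 points (-8.16 to 8.96).

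Runx3 showed small differences, all within the middle 90% of all genes. In TIL cells Gzmb was found in 63.2% (61.8 to 64.6) of 4546 cells with a Runx3 UMI and 56.3% (55.1 to 57.4) of 7094 without, a difference of 6.93 points (5.11 to 8.74) that ran from 6.20 to 8.67 over 20 draws. Cells weighted to the same clusters had 61.0%. The share was higher with Runx3 in 6 of 8 TIL clusters, with intervals above 0 in 2 of them, number 7 (8.81 points, 0.43 to 17.2) and number 15 (3.74 points, 1.05 to 6.41).

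In IEL cells the Gzmb difference with Runx3 was 3.61 points (1.88 to 5.32), but 0.53 to 3.40 over the 20 further draws, and cells weighted to the same clusters had 77.3% against 79.6% with Runx3. In the thinning that gave 3.61 points, the Gzmb share was higher with Runx3 in 7 of 8 IEL clusters. Intervals lay above 0 in 2 of them, number 2 and number 4, and single IEL clusters were not drawn again. Ccl5 in TIL cells was lower with Runx3, 22.9% against 26.6% (-3.71 points, -5.30 to -2.10), and 22.2% in cells weighted to the same clusters. In IEL cells the Ccl5 difference with Runx3 was -0.11 points (-0.55 to 0.30) and took both signs over the draws.

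**Figure D4:**
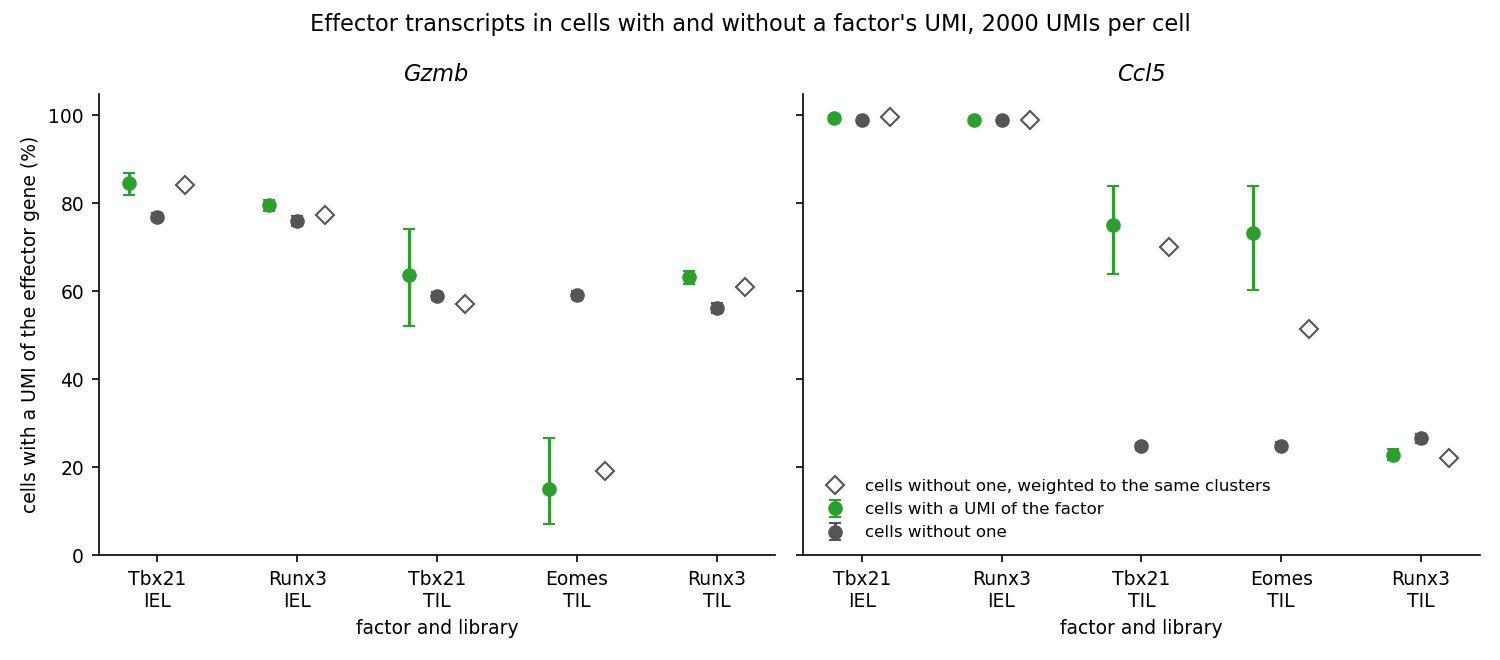
Percent of cells with a Gzmb (left) or Ccl5 (right) UMI at 2000 UMIs per cell, among cells with a UMI of the factor (green), without one (grey) and without one but weighted to the same clusters (open diamonds); bars are exact 95% intervals. TIL cells with Eomes stand at 15% for Gzmb and 73.3% for Ccl5, against 59.2% and 24.9% without; at the same clusters the values without Eomes are 19.2% and 51.5%.

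Tbx21 and Eomes were found together in 1 IEL and 1 TIL cell. A Runx3 UMI was found in 46.3% (42.9 to 49.7) of IEL cells with and 43.2% of those without Tbx21. In TIL cells it was found in 31.3% (21.3 to 42.6) of cells with Tbx21 and 39.1% of those without, and in 25.0% (14.7 to 37.9) of cells with Eomes against 39.1%.

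The genes whose levels most resembled each factor over the 16 groups were ranked among 7269 genes by Pearson r of log2(CPM + 1). For Tbx21 they were Ptp4a3 (0.97), Snx10 (0.97), Car2, Srsf7 and Sh2d3c (0.96 each). This ranking takes in the difference between the libraries. For Eomes they included Ppic (0.97), Ly6c1 (0.94), Ly6c2 (0.94) and Igfbp4 (0.93), of which Ly6c2 and Igfbp4 lead cluster 8. Eomes is high in TIL cluster 8 alone, so its ranking rests on that group. For Runx3 they were Slc39a7 (0.92), Cklf (0.91), Slc48a1, Mthfsl (0.90 each) and Vps37a (0.88). No ranking is given for Zfp683, which had at most 11 UMIs in a group.

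Genes around these factors were counted by lists, beside the 13.9% higher in IEL and 11.1% higher in TIL over all 6326 genes. Of 18 type-1 effector genes, 15 reached 20 CPM. Of these, 11 were higher in IEL, 3 in TIL and 1 met neither rule, with a median log2 ratio of -2.42. Ccl4, a chemokine gene, stood at 707 CPM among IEL and 16.8 among TIL cells (log2 -5.40), and Ifng, the signature cytokine of T-bet, at 65.8 and 5.45 CPM (-3.59). Il18r1, a receptor chain for interleukin-18, went the other way, at 4.07 and 160 CPM (5.30). That gene also leads cluster 14, one of the clusters with many IL-17 markers.

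Upstream regulators were split. Of 9, 7 were counted, with 3 higher in IEL and 2 in TIL (median -0.89). Irf1 (-1.68), of the interferon response, was higher in IEL, and Id2 (1.31), an inhibitor of E proteins, was higher in TIL cells. Of the Runx3 relatives and partner, Runx1 was higher in TIL (48.0 and 143 CPM, 1.58). Runx2 (0.16) and Cbfb, the shared β subunit of Runx factors (0.71), were within 2-fold.

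Of the 4 CD8 and CD4 lineage genes, 2 reached 20 CPM and both were higher in IEL, Cd8a (581 and 60.0 CPM, -3.28) and Cd8b1 (-2.25), while Runx3 was nearly level. By cluster, Cd8a was at 1534 CPM in TIL cluster 18 and 392 CPM in cluster 7, and at 14.4 CPM in cluster 8 and at most 3.96 CPM in clusters 11, 14, 15 and 16. The 2 TIL clusters with the most Cd8a were the 2 with the most Tbx21, and both had less Runx3 than clusters 14 and 15.

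Of 15 residency genes, all counted, 7 stood higher among IEL and 4 among TIL cells (median -0.43). Il2rb is in this list and in that of the type-1 effectors. Cd244a (-3.78), an inhibitory or activating receptor gene of cytotoxic cells, and Itga1 (-3.66), an integrin that binds collagen, were higher in IEL. Cxcr6 (3.64), a chemokine receptor gene, was higher in TIL cells. Of 7 egress and homing genes, 5 were counted, with 3 higher in TIL, Ccr7 (3.63), S1pr1 (3.39) and Lef1 (1.88), and 1 in IEL (median 1.88).

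Of 10 heat shock and early response genes, 8 stood higher among IEL cells and 0 among TIL cells (median -2.15), led by Hspa1a (-5.65), Hspa1b (-5.19) and Hspb1 (-5.14). Hspa1a was at 3435 CPM in IEL cluster 4, where Tbx21 was highest, and at 836 CPM in cluster 5, where it was lowest among the larger clusters. Cluster 3, nearly as high in Tbx21 as cluster 4, had 79.2 CPM of Hspa1a, and clusters 1 and 2 had 72.2 and 73.3 CPM. Without cluster 4 the Tbx21 log2 ratio was -4.10. The part of the heat shock genes in these levels was not tested.

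**Figure D5:**
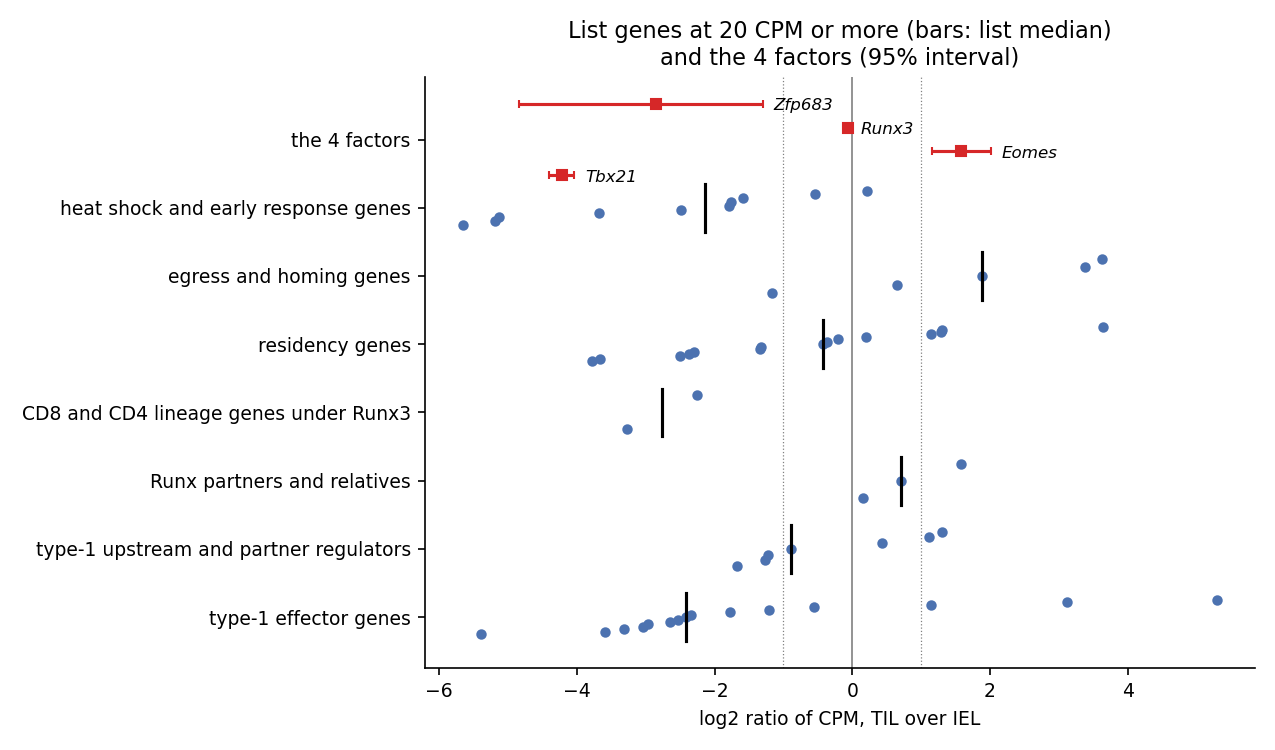
Log2 ratio of CPM, TIL over IEL, for the genes of each list at 20 CPM or more (blue points, black bars are list medians) and for the 4 factors (red squares with 95% intervals); dotted lines mark 2-fold. Type-1 effector genes have a median of -2.42 and heat shock and early response genes of -2.15, and Tbx21 stands at -4.22; the signs of Eomes and Runx3 turn under 1 other setting each.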

How the data were processed

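Single-cell 3' UMI counts were analysed for 2 libraries. Per the file headers, the deposited matrices hold raw whole-number counts for each gene in each barcode. Cell Ranger 6.1.1 and mm10 are named, per the submitters' processing notes. Barcodes were kept with at least 500 genes, 1000 UMIs and at most 10% mitochondrial UMIs (9128 of 9398 IEL and 12407 of 13245 TIL). Kept cells had median depths of 6858.5 and 6465 UMIs.

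Cells of both libraries were clustered with Scanpy 1.11.5 (2000 variable genes without the 4 factors, Gzmb and Ccl5; 30 principal components; 15 neighbours; Leiden resolution 1, igraph 0.11.9) and no batch correction. Scrublet called 2 IEL and 0 TIL doublets and so had not worked. No doublets were removed by its calls. Cluster 12 was left out because its median doublet score, 0.276, was above 0.2, and no rule on mixed markers was applied. Levels are summed UMIs per 1000000 (CPM) with exact Poisson intervals. Ratios have exact conditional intervals, shares have Clopper-Pearson intervals after thinning to 2000 UMIs, and differences of shares have Newcombe intervals (SciPy 1.17.1, statsmodels 0.14.6), all at 95% and for counting error only. On counts simulated from the IEL means with Poisson error alone, 200 of 200 genes changed 4-fold were recovered and 95.7% of intervals held the true ratio. Such counts carry no variation between cells, clusters or libraries, so they check the calculation only.

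Named genes were the 4 factors, Gzmb, Ccl5, the 3 largest ratios called in each list, and the 5 genes most like each factor. Genes named beside these serve as markers of a cluster and were chosen after their values were seen. The members and lists were chosen with earlier results of these data known. No p-value is given, since each group is 1 library. Alternatives covered thinning depth, cell filters, the definition of the cells, scaling, clustering settings, the CPM floor and clusters left out. No other per-sample columns were present (0 unused). The promoter and annotation tables were those of RefSeq and GENCODE on GRCm38. Zfp683 and Ccl5 promoters are not used here. Some results of the named-genes rule and 1 gene list are not reported here.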

Additional observations from a re-analysis of the deposited data

Results flagged for a closer look

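The factors were also counted in 3 TIL clusters that entered no comparison of T cells. In cluster 12, of 324 cells with markers of several cell types and a median of 12795.5 UMIs, Tbx21 stood at 6.56 CPM (4.39 to 9.42), Eomes at 14.2 CPM (10.9 to 18.2) and Runx3 at 271 CPM (256 to 287). Its leading genes include Gzmc and Gramd3 of cluster 7, Ly6c2 of cluster 8 and haemoglobin genes. In cluster 17, the myeloid-like cells, Runx3 stood at 188 CPM (171 to 206). In cluster 20, of 79 cells led by αβ T cell genes such as Foxp3 and Cd4, it stood at 244 CPM (211 to 282). These levels lie above the limit that a count of 0 allows, and no control sample measures their background.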

How the results depend on the processing

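Of 250 values recomputed for 46 results, 188 stayed within their spread, 60 moved and 2 turned in direction; where no other reason stands beside a value, the cause was not tested. The Runx3 log2 ratio turned to 0.036 with the median ratio of all genes set to 0. The Eomes ratio turned to -0.77 without cluster 8, an alternative chosen, like the next 2, after seeing the data. Without cluster 8 the Runx3 ratio was -0.030, without cluster 4 it was -0.012, and without clusters 7 and 18 it was -0.016, where Tbx21 was at -5.15. It was -0.12 with mitochondrial, ribosomal and haemoglobin genes out of the total. As a mean over cells the Tbx21 ratio was -4.02.

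Shares move with depth by construction. Thinned to 1000 UMIs, Tbx21 was at 5.34% in IEL and 0.393% in TIL cells, Eomes at 0.0661% and 0.359%, Runx3 at 25.02% and 23.1%, and Zfp683 at 0 in TIL. At 3000 UMIs Tbx21 was at 14.9% and 0.977%, Eomes at 0.315% and 0.715%, Runx3 at 54.96% and 51.02%, and Zfp683 at 0.0899% in IEL. Unthinned, Tbx21 was at 28.6% and 1.85%, Eomes at 0.517% and 1.15%, Runx3 at 80.9% and 72.6%, and Zfp683 at 0.253% in IEL. Over 20 draws the highest share was 10.8% for Tbx21 and 0.122% for Zfp683 in IEL and 40.2% for Runx3 in TIL; the lowest was 41.8% for Runx3 in IEL and 0 for Zfp683 in TIL.

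In cells chosen by receptor transcripts, the log2 ratio was -4.50 for Tbx21 and -0.11 for Runx3. Shares were 8.18% and 0.490% for Tbx21 and 0 for Zfp683 in IEL. Differences were 13.7 points for Tbx21 and Gzmb, 1.41 for Tbx21 and Ccl5, 1.71 for Runx3 and Gzmb and -1.06 for Runx3 and Ccl5 in IEL, and 38.9 for Tbx21 and Ccl5 and 9.01 for Runx3 and Gzmb in TIL. Thinned to 1000 UMIs, IEL differences were 4.17 for Tbx21 and 0.290 for Runx3 with Gzmb and 0.458 for Runx3 with Ccl5, and -32.96 for Eomes and Gzmb in TIL. With at least 3 effector UMIs they were -27.9 for Eomes and Gzmb in TIL, and 2.73 for Tbx21 and 0.485 for Runx3 with Ccl5 in IEL.

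One CD8 and CD4 lineage gene was higher in IEL in cells chosen by receptor transcripts, and 1 with a floor of 50 CPM, where 1 egress gene was higher in TIL. At Leiden resolution 0.5 the highest cluster had 67.3 CPM of Tbx21 in IEL, and 20.9 CPM of Tbx21 and 324 CPM of Runx3 in TIL. At resolution 2 it had 87.4 CPM of Tbx21 and 4.53 CPM of Eomes in IEL and 386 CPM of Runx3 in TIL, and with genes centred within each library 2.25 CPM of Eomes in IEL. No paired analysis was possible because each group is 1 library and no replicate numbers are shared. Depth limits Zfp683 most, with 23 UMIs in IEL and 4 in TIL cells.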
